A study of Schizosaccharomyces pombe with 32 samples.

Results

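The genes described here encode proteins of the mitochondrial ribosome in the fission yeast Schizosaccharomyces pombe. They were chosen by name: every gene on the array whose symbol begins with mrpl or mrps, or reads mrp followed by a digit. The rule found 46 of the 4819 genes measured, with 28 mrpl symbols, 8 mrps symbols and 10 of the mrp type. By subunit, 31 belong to the large and 15 to the small subunit. Chromosomes I and II carry 18 of them each, and chromosome III carries 10. The current RefSeq annotation holds 51 genes that the rule would cover, and the 5 that were not on the array are mrp49, mrpl27, mrpl39, mrpl44 and mrp1, which is a non-coding RNA and not a ribosomal protein. All 46 genes could be tested, each from 1 probe. Of their 1472 values, 8 were missing, and 40 genes were measured on every array.

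Mitochondria keep a small genome of their own, and in yeasts it encodes mainly a few hydrophobic subunits of the respiratory chain and the ATP synthase. A dedicated ribosome inside the organelle translates them. Its RNAs come from the mitochondrial genome, whereas nearly all of its proteins are encoded in the nucleus, made in the cytosol and imported. The small subunit reads the messenger RNA, and the large subunit joins amino acids and holds the exit tunnel for the new chain. Production of these proteins therefore draws on the nuclear transcripts measured here, on import and on assembly.

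The series followed cells through nitrogen starvation, hour by hour from 1 to 8 h, on 32 arrays. In the P-factor condition, cells of the strain labelled CRL672 were starved in minimal medium without nitrogen that held 0.5 µg per ml of synthetic P-factor, the mating pheromone of P cells. In the condition without P-factor, cells of the strain labelled L972 were starved in the same medium with no pheromone. The labels give no genotypes beyond these strain names. Each hour of each condition had 2 arrays, and since the strain differed as well as the pheromone, the effects of strain and P-factor cannot be told apart. Every array set polyA RNA from starved cells (Cy5) against polyA RNA from the same strain growing in rich medium (Cy3), so each value is a log ratio of starved over growing cells and the medium changed along with nitrogen. The sources used here do not state the base of the logarithm, and it was taken as 2. A value of 0 means that a gene kept its place relative to the median gene of the array, since every array was centred on its median. It does not give an amount per cell, and fewer transcripts per cell cannot be told apart from fewer cells that carry them.

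The arrays fall by their numbers into 4 series of 8, 1 for each condition and repeat, called here series 1 and series 2 of a condition. The array numbers of series 1 without P-factor lie well above those of all other series and do not follow the hours. The labels do not say what this reflects. Nothing in the labels says whether the repeats were separate cultures, so the p-values measure the spread between these arrays, which may be technical. The labels record no swapped dyes, so gene-specific dye effects remain in the ratios, and comparisons with growth leave out the spread of growing cells. The starvation response was present in both conditions: the protease gene isp6 averaged 6.11 with P-factor and 6.14 without it. The P-factor receptor gene mam2, a marker of M cells, averaged 6.10 with P-factor and 3.73 without it. Of the 4 M cell genes looked up, only mam2 had a called difference between these averages. The P cell gene map1 averaged 1.79 with P-factor and 1.27 without it, and the P cell gene map3 averaged -0.40 and -0.61. Between the 2 arrays of an hour, the members differed by a median of 0.16 to 0.35 with P-factor and 0.25 to 0.36 without it.

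More mitochondrial ribosomal protein transcripts were lower than higher in starved cells relative to growing cells. With P-factor, the average of 1 to 8 h was lower for 23 of 46 genes and higher for 5 at an adjusted p below 0.05 (limma, adjusted over all 4811 genes tested), where 32.8% of all genes were called lower and 33.9% higher. Without P-factor, 28 genes were lower and 6 higher, where 35.3% of all genes were lower and 33.7% higher. The median member stood at -0.34 with P-factor and -0.48 without it, against medians of 0.02 and -0.00 over all genes. Without series 1 of the P-factor condition 16 were lower and 0 higher: of the 23 and 5 calls, 4 lower and 4 higher ones were lost, and mrp17, mrpl12 and mrps28 (lower) and mrp7 (higher) had no estimate because an array of series 2 lacked them. Without series 2, 16 were lower and 2 higher. In the heatmap of hourly values, the lowest genes are already below 0 at the first hour.

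**Figure D1:**
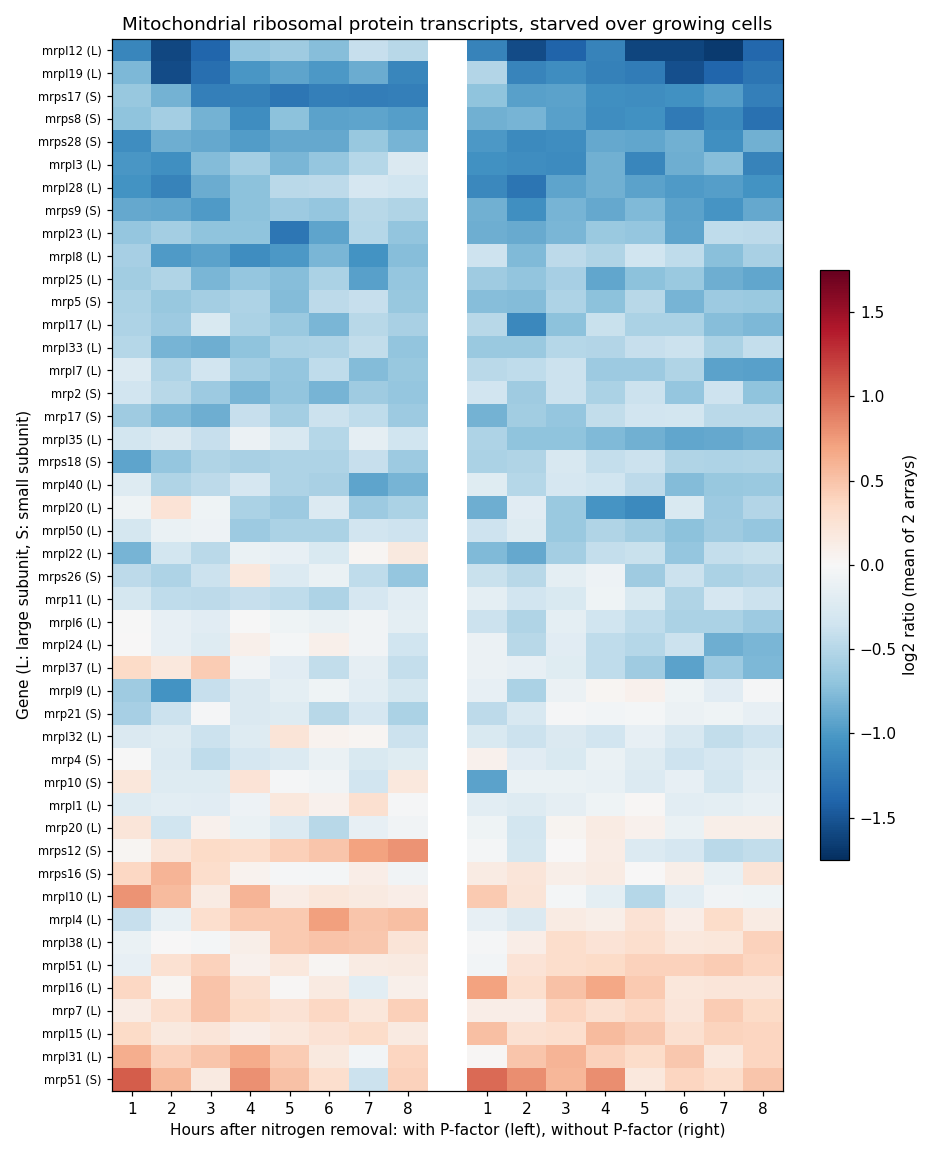
Hourly log2 ratio of starved over growing cells (colour, mean of the arrays of an hour) for the 46 genes, ordered from the lowest to the highest mean of both conditions, with P-factor on the left and without it on the right. Hours after nitrogen removal run along the horizontal axis, and L and S mark large and small subunit genes. Blue rows from mrpl12 to mrpl40 stay below 0 throughout, and the red rows at the bottom end with mrp51.

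The changes were small in size. An average at least 1 lower on the log2 scale was reached by 2 genes with P-factor, mrps17 and mrpl19 (14.0% of all genes), and by 4 genes without it, mrpl12, mrpl19, mrps8 and mrpl28 (14.4% of all genes). No member averaged 1 or more higher in either condition, where 14.5% of all genes did with P-factor and 14.7% without it. Of the 46 genes, 21 were lower in both conditions (29.2% of all genes), 3 were higher in both (28.5%) and 8 were called in neither (22.2%). Both conditions thus gave mostly the same side, and 16 genes lay below 0 on every array on which they were measured. The matching share of all genes was not counted. The growth reference of each strain was its own, so the conditions share no control arrays.

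Among the large subunit genes, mrpl12 was lowest without P-factor. It is named for the L12 stalk family, which recruits translation factors to the ribosome. Its average was -0.88 ± 0.15 with P-factor (adjusted p = 2.03e-05) and -1.44 ± 0.15 without it (adjusted p = 2.23e-08), or 1.85-fold and 2.72-fold lower than in growing cells. Throughout, ± is the model's SE, from 16 arrays in 2 series a condition. The model gives all genes the same correlation within a series, 0.354. Where the series of a gene differ more than that, the SE and p-value of its average may be too small. For mrps17 without P-factor, for example, the series means were -0.71 and -1.28. For mrpl12 the fit lacked 1 array at 5 h with P-factor and 1 at 4 h without it. The gene mrpl19 (SPAC1486.07C) ranged from -1.61 to -0.38 on the arrays with P-factor, with an average of -1.08 ± 0.14 (adjusted p = 6.29e-07), and averaged -1.17 ± 0.14 without it (adjusted p = 1.87e-07). The genes mrpl3, mrpl28, mrpl23, mrpl25 and mrpl8 averaged -0.90 to -0.67 with P-factor and -1.01 to -0.53 without it, and all 5 were called in both conditions. The call of mrpl28 with P-factor was lost without series 2 of that condition (-0.45, adjusted p = 0.0565), and that of mrpl8 without P-factor was lost without series 2 there (-0.20, adjusted p = 0.136). Over the 31 large subunit genes, 14 were lower and 3 higher with P-factor (median -0.30), and 20 were lower and 5 higher without it (median -0.48).

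Among the small subunit genes, mrps17 (SPBC409.14C), of the S17 family that binds ribosomal RNA, was lowest with P-factor. On the arrays of series 1 with P-factor it read -0.37, -0.65, -1.15, -1.21, -1.36, -1.03, -1.16 and -1.21 from 1 to 8 h, and on those of series 2 it read -0.95, -1.01, -1.23, -1.15, -1.16, -1.37, -1.27 and -1.18. Without P-factor, series 1 read -0.24, -0.52, -0.53, -0.74, -0.67, -0.97, -0.82 and -1.19, and series 2 read -1.16, -1.39, -1.32, -1.41, -1.50, -1.14, -1.11 and -1.20. All of these values were below 0, and at 1 to 7 h those of series 1 without P-factor were the highest. The average of mrps17 was -1.09 ± 0.14 with P-factor (adjusted p = 4.61e-07) and -0.99 ± 0.14 without it (adjusted p = 1.71e-06). The genes mrps8, mrps9 and mrps28 averaged -0.88 to -0.73 with P-factor and -1.05 to -0.91 without it. Over the 15 small subunit genes, 9 were lower and 2 higher with P-factor (median -0.58), and 8 were lower and 1 higher without it (median -0.47). The order of the subunit medians differed between the conditions, and the difference between subunits was not tested.

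A few members were higher in starved cells. The highest was mrp51 (SPAC23A1.18C), whose budding yeast namesake is a small subunit protein. With P-factor its values in series 1 were 0.95, 0.77, 0.39, 0.71, 0.38, 0.19, -0.84 and 0.40 from 1 to 8 h, and in series 2 they were 1.18, 0.38, -0.08, 0.89, 0.65, 0.41, 0.09 and 0.41. Without P-factor they were 1.19, 1.06, 0.31, 0.85, 0.26, 0.32, 0.39 and 0.57 in series 1 and 0.78, 0.57, 0.86, 0.77, 0.13, 0.43, 0.22 and 0.40 in series 2. The first hour was high in all 4 series, and the 2 values below 0 were -0.84 at 7 h in series 1 and -0.08 at 3 h in series 2, both with P-factor. The average of mrp51 was 0.43 ± 0.15 with P-factor (adjusted p = 0.0134) and 0.57 ± 0.15 without it (adjusted p = 0.00164), a 1.35-fold and a 1.48-fold increase over growth. The other genes higher in both conditions were mrp7, of the L27 family near the peptidyl transferase centre, at 0.31 ± 0.12 with P-factor and 0.28 ± 0.11 without it, and mrpl31 at 0.39 ± 0.15 with P-factor and 0.36 ± 0.15 without it. The genes mrpl10 and mrps12 were higher with P-factor and not called without it, and mrpl15, mrpl16 and mrpl51 were higher without P-factor and not called with it. No member was called in opposite directions in the 2 conditions.

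Several of these higher averages rest on both series. The call of mrp51 with P-factor was lost without series 1 (0.49, adjusted p = 0.0658) or series 2 (0.37, adjusted p = 0.162) of that condition. For mrp7, the value without P-factor was 0.05 without series 1 there (adjusted p = 0.68), it was also not called as deposited or without either P-factor series, and its call with P-factor was lost without series 2 (0.39, adjusted p = 0.118). The gene mrpl31 was called in neither condition as deposited (0.35 with P-factor, adjusted p = 0.0502, and 0.32 without it, adjusted p = 0.0684) and lost its call with P-factor without series 1 (0.33, adjusted p = 0.104) and its call without P-factor without either series there (0.33 to 0.39, adjusted p = 0.0602 to 0.111). With P-factor mrpl10 was not called without either series (0.23 to 0.44, adjusted p = 0.151 to 0.457), nor was mrps12 without series 1 (0.26, adjusted p = 0.276). The call of mrpl51 was lost without either P-factor series (0.31, adjusted p = 0.0509), and those of mrpl15 and mrpl16 held in all 10 alternatives.

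**Figure D2:**
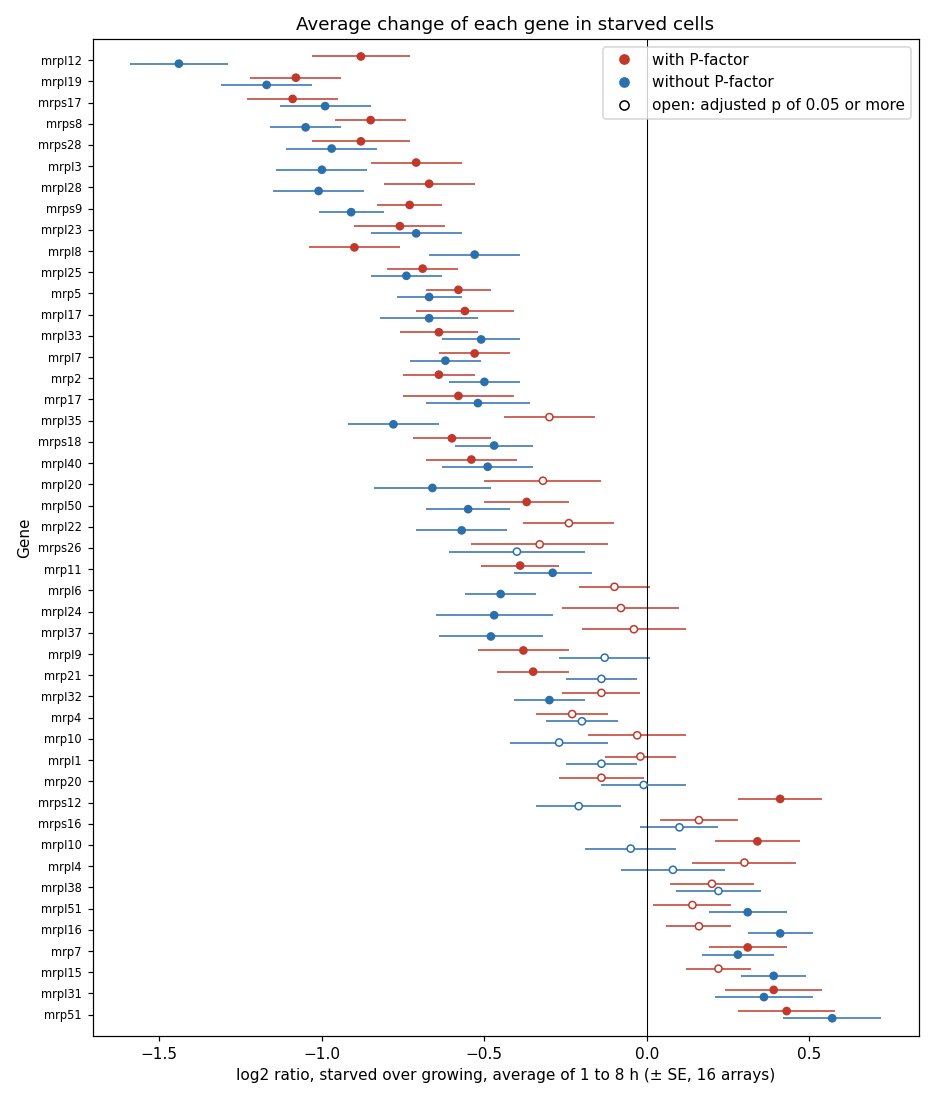
Average log2 ratio of starved over growing cells over 1 to 8 h for each gene (points, with the model's SE as bars, 16 arrays a condition), with P-factor in red above and without it in blue below; open points have an adjusted p of 0.05 or more. Points left of 0 outnumber those right of it in both conditions, from mrpl12 at the top to mrp51 at the bottom.

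The genes not called in either condition included mrps26, at -0.33 ± 0.21 with P-factor (adjusted p = 0.164) and -0.40 ± 0.21 without it (adjusted p = 0.0944). Its series differed widely. Series 1 averaged -0.62 and series 2 averaged -0.04 with P-factor, and the means were -0.88 and 0.09 without it. The other 7 were mrp10, mrp20, mrp4, mrpl1, mrpl38, mrpl4 and mrps16, with averages from -0.23 to 0.30 with P-factor and from -0.27 to 0.22 without it.

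The members as a group kept a nearly level course. Their median ran between -0.44 and -0.26 over the hours with P-factor and between -0.51 and -0.27 without it. From its lowest to its highest hour, a member's level moved by a median of 0.56 with P-factor and 0.48 without it, against 0.85 and 0.73 over all genes. Over the 368 combinations of a member and an hour, 39.4% were lower and 4.89% higher with P-factor, where 27.1% of all such combinations over the array were lower and 27.1% higher. Without P-factor 44.0% were lower and 4.35% higher, where 28.1% were lower and 26.7% higher. Left without series 1 or series 2, the P-factor condition had 20.4% and 15.2% of the members' combinations lower and 1.63% and 2.45% higher. Without series 1 of the other condition, 1.90% of its combinations were higher. Of the members, 8 were lower at all 8 hours with P-factor and 10 without it, and mrp5, mrpl25, mrps17, mrps8 and mrps9 were lower at all hours of both. The share of all genes lower at every hour was not counted, so these counts cannot be set against the array.

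The plot of list medians sets the members beside other parts of the mitochondrial and cytosolic machinery. A further 13 subunits of the mitochondrial ribosome that carry other names had medians of -0.38 with P-factor and -0.64 without it, with 8 lower and 1 higher with P-factor and 9 lower and 1 higher without it. The lowest of them with P-factor was rsm19 at -1.15 ± 0.14. The 1 higher gene in both conditions was cox1101, which is also counted in the respiratory chain list below. The list of 33 mitochondrial protein import genes had medians of -0.91 with P-factor and -0.93 without it, with 26 lower and 5 higher in each condition. Matched by symbol, it covers several import routes and also the chaperonin genes hsp10 and mcp60. Not all of its genes act on the import of ribosomal proteins. The 40 genes of the list named mitochondrial translation factors had medians of -0.25 with P-factor (19 lower and 4 higher) and -0.43 without it (22 lower and 5 higher). This list was also matched by symbol and holds genes that are not translation factors, such as the RNA polymerase gene rpo41 and the RNA helicase gene mss116. The list of 14 mitochondrial tRNA synthetase and tRNA modification genes had medians of -0.31 with P-factor and -0.24 without it. It was matched by symbol, and some of its genes may have other functions. The 43 tested genes of the respiratory chain and ATP synthase had medians of 0.39 with P-factor (24 higher and 6 lower) and 0.58 without it (29 higher and 6 lower). Cytosolic ribosomal protein genes, 121 in number, had medians of -2.06 with P-factor and -2.11 without it. The differences between lists were not tested.

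**Figure D3:**
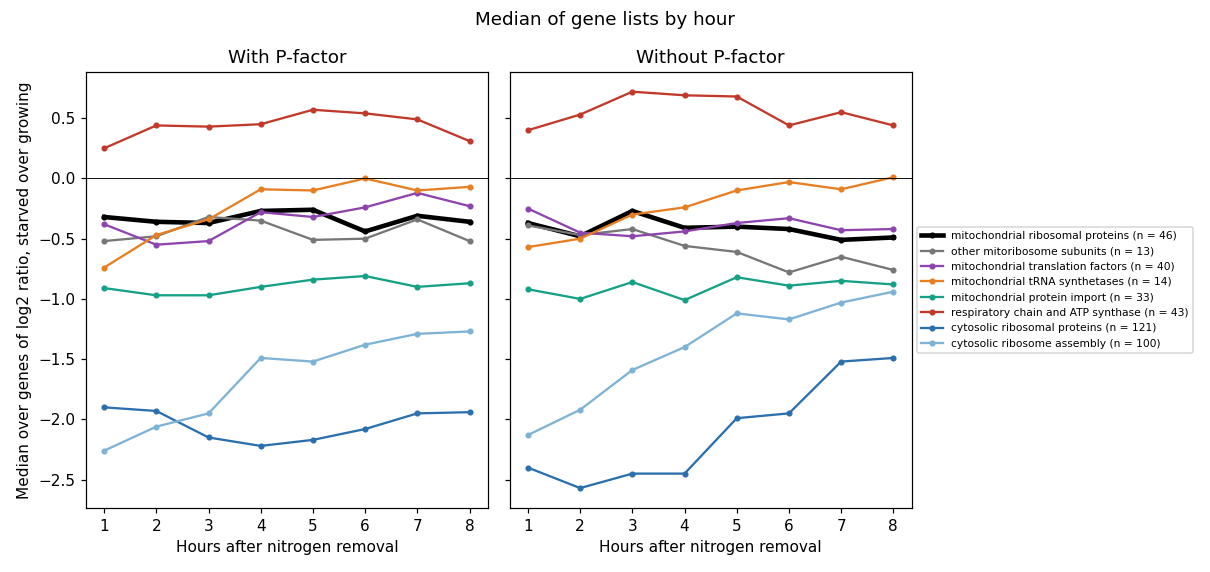
Median log2 ratio of starved over growing cells for each gene list at 1 to 8 h after nitrogen removal, with P-factor on the left and without it on the right. The mitochondrial ribosomal proteins (thick black line) stay between -0.51 and -0.26, above the cytosolic ribosomal proteins and below the respiratory chain.

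The next question was which members moved between the early hours (1 to 3 h) and the late hours (6 to 8 h). With P-factor, 10 members were higher late and 7 lower, where 33.7% of all genes were higher and 19.8% lower. Without P-factor, none was higher and 7 were lower, where 24% of all genes were higher and 18.3% lower. There 11 members had an unadjusted p under 0.05 in either direction, where 48.9% of all genes did. The median member moved by 0.01 with P-factor and -0.06 without it, against 0.11 and 0.05 over all genes. In the values as deposited, without centring, the median over all genes for this comparison with P-factor was -0.08, and 3 members were higher and 16 lower, so the balance of directions with P-factor rests on the centring. With P-factor 7 were higher and 1 lower without series 1 of that condition, and 3 higher and 5 lower without series 2. All 17 late calls with P-factor and all 7 without it had the same sign in both series of their condition. The calls were made on the mean of these same series, so the shared sign is no separate support.

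The 4 largest rises with P-factor were those of mrpl12 (0.82 ± 0.14, adjusted p = 5.76e-05), mrpl4 (0.66 ± 0.16, adjusted p = 0.00133), mrpl28 (0.65 ± 0.14, adjusted p = 0.000417) and mrpl22 (0.52 ± 0.14, adjusted p = 0.00321), a relative of the L22 protein that lines the exit tunnel. The other 6 were mrpl9, mrpl3, mrps12, mrpl38, mrps9 and mrpl1, between 0.31 and 0.50. The call of mrpl12 was lost without series 2 of that condition (0.48, adjusted p = 0.0613), and its change was 0.48 in series 1 and 1.16 in series 2, so its place at the top rests on series 2. The call of mrpl22 was lost without series 1 (0.46, adjusted p = 0.0972) and as deposited (0.33, adjusted p = 0.0512). Each of the other 6 lost its call without series 1 or without series 2, and without series 2 mrps12 was at 0.25 (adjusted p = 0.259), mrpl38 at 0.21 (adjusted p = 0.379) and mrpl1 at 0.19 (adjusted p = 0.43). The calls of mrpl4 and mrpl28 held in all 10 alternatives. At 6, 7 and 8 h mrpl4 read 0.72, 0.18 and 0.27 in series 1 and 0.72, 0.80 and 0.77 in series 2, against -0.54, -0.18 and 0.03 in series 1 and -0.28, -0.08 and 0.56 in series 2 at 1, 2 and 3 h. Early and late values of mrpl4 overlapped through the value of series 2 at 3 h. Without P-factor mrpl4 moved by 0.28 ± 0.16 and was not called (adjusted p = 0.174).

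The gene mrpl37 fell most in both conditions. With P-factor its late values were -0.48, -0.04 and -0.31 in series 1 and -0.38, -0.28 and -0.54 in series 2, and its early values were 0.61, 0.06 and 0.50, and 0.08, 0.32 and 0.40. All late values were below all early ones. Without P-factor its late values were -1.36, -1.11 and -0.92 in series 1 and -0.52, -0.16 and -0.65 in series 2, and its early values were -0.21, -0.04 and -0.30, and 0.01, -0.25 and -0.12, with an overlap in series 2. The change was -0.67 ± 0.16 with P-factor (adjusted p = 0.00164) and -0.64 ± 0.16 without it (adjusted p = 0.0032), and the call without P-factor was lost when series 1 was left out (-0.33, adjusted p = 0.348). The genes mrp51, mrpl16 and mrpl40 also fell in both conditions, so 4 members did so, where 9.10% of all genes did. With P-factor mrpl20, mrps16 and mrpl10 fell as well, by 0.34 to 0.50, and without it mrpl19, mrpl7 and mrps8 did, by 0.35 to 0.49. Apart from mrpl37, each of the falls with P-factor lost its call without series 1 or series 2 of that condition, and without series 1 mrp51 moved by -0.19 (adjusted p = 0.444) and mrps16 by -0.26 (adjusted p = 0.197). Each of the 7 falls without P-factor lost its call without series 1 of that condition. Without series 2, all but mrpl19 and mrpl37 lost theirs.

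A test for any difference among the 8 hours called 7 members with P-factor (mrp51, mrpl12, mrpl16, mrpl22, mrpl28, mrpl4 and mrpl9), where 42.1% of all genes were called. Without P-factor limma called 0 members, with 4 at an unadjusted p under 0.05, where 25.9% of all genes were called. The count with P-factor was 1 without series 1 and 2 without series 2 of that condition, and 5 without either series of the other.

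The conditions were then compared with each other. Averaged over 1 to 8 h, P-factor minus none gave 0 calls among the members in limma, with 4 at an unadjusted p under 0.05 (16.3% of all genes), where 2.12% of all genes were higher and 1.21% lower. The nearest was mrps12 at 0.62 ± 0.18 (adjusted p = 0.0559), followed by mrpl12 at 0.56 ± 0.21 (adjusted p = 0.169) and mrpl35 at 0.48 ± 0.19 (adjusted p = 0.206). With the array series left out of the model 11 members were higher and 2 lower, and with the series as a fixed block 14 were higher and 5 lower. Both of these fits judge the average against the spread between single arrays, and not between the series of a condition. Their counts are therefore too liberal, and the shares of all genes under them are not given here. Without series 1 of the condition lacking P-factor 3 were higher, and without its series 2 there were 6 higher and 2 lower. With either of these series left out, the consensus correlation within series was 0.143, against 0.354 in the main fit. A lower correlation gives an average a smaller SE, so these counts may be too liberal as well. The shares of all genes under these fits are also not given here. Hour by hour, 3 of the 368 combinations of member and hour were higher with P-factor and 0 lower, where 2.00% and 0.722% of all combinations were.

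The late minus early change was larger with P-factor for 5 members and smaller for none, where 15.6% of all genes were higher and 10.2% lower. The 5 were mrpl12, mrps12, mrpl19, mrpl28 and mrps9. The count was 4 without series 1 of the P-factor condition, 0 (and 2 in the other direction) without its series 2, and 0 and 2 without series 1 and series 2 of the other. The scatter of the late minus early changes shows them to the lower right of the diagonal.

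**Figure D4:**
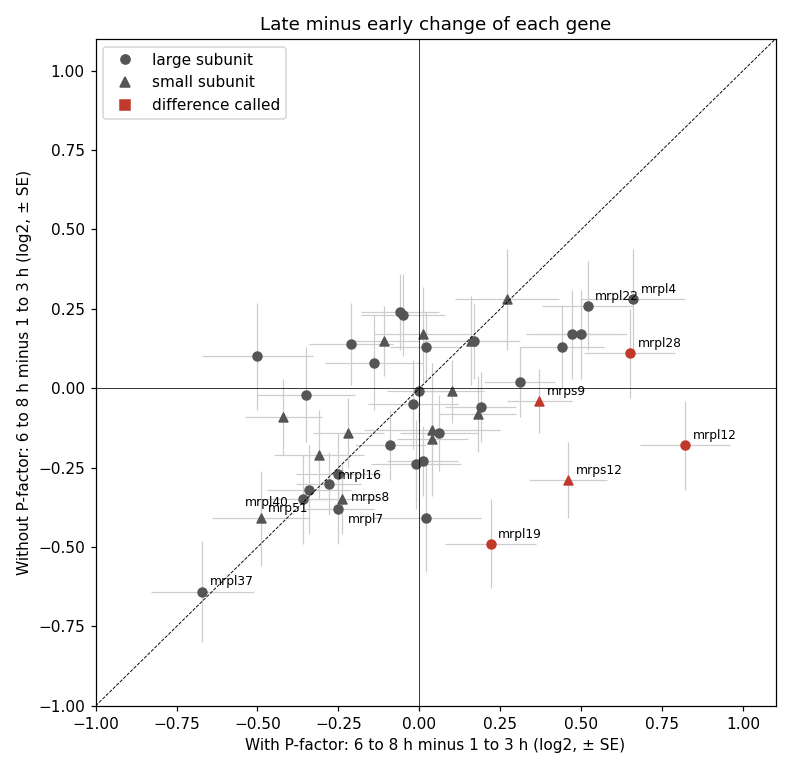
Late minus early change (6 to 8 h minus 1 to 3 h, log2, with the model's SE) with P-factor on the horizontal axis and without it on the vertical axis, for the 46 genes; circles are large and triangles small subunit genes. The 5 genes in red (mrpl12, mrps12, mrpl19, mrpl28 and mrps9) have a called difference between the conditions, and mrpl37 lies near the diagonal at the lower left.

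For mrpl12 (SPCC4B3.09C), the late values with P-factor were -0.79, -0.60 and -0.76 in series 1 and -0.71, -0.22 and -0.22 in series 2, and without P-factor they were -1.69, -1.88 and -1.66 in series 1 and -1.54, -1.46 and -1.10 in series 2. All late values with P-factor lay above all those without it. At 1 to 3 h the ranges overlapped, from -1.66 to -0.88 with P-factor and from -1.71 to -0.97 without it. The difference of the changes was 1.00 ± 0.20 (adjusted p = 0.00102), and at 7 h the conditions differed by 1.25 ± 0.30 (adjusted p = 0.0132, where 5.34% of all genes were higher at that hour). The difference was not called without series 2 of the P-factor condition (0.66, adjusted p = 0.0638) or without series 1 of the other (0.73, adjusted p = 0.0781).

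For mrps12 (SPAC4F8.06), of the S12 family at the decoding centre, the late values with P-factor were 0.53, 0.72 and 0.84 in series 1 and 0.45, 0.68 and 0.72 in series 2, and without P-factor they were -0.12, -0.42 and -0.35 in series 1 and -0.47, -0.52 and -0.51 in series 2. Every late value with P-factor was above growth and every one without it was below. The difference of the changes was 0.75 ± 0.18 (adjusted p = 0.00353), and the conditions differed by 1.17 ± 0.27 at 7 h (adjusted p = 0.00823) and by 1.21 ± 0.27 at 8 h (adjusted p = 0.00489, where 6.36% of all genes were higher). The early values with P-factor differed between the series, at 0.45, 0.53 and 0.38 in series 1 and -0.37, -0.11 and 0.30 in series 2. The call on the changes was lost without series 2 of the P-factor condition (0.53, adjusted p = 0.0801) and without series 1 (0.76, adjusted p = 0.0645) or series 2 (0.73, adjusted p = 0.0709) of the other.

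The gene mrpl28 (SPAC4F8.05C) is the direct neighbour of mrps12 on chromosome I, with 0 protein-coding genes between them. Its late values with P-factor were -0.21, -0.14 and -0.23 in series 1 and -0.71, -0.46 and -0.48 in series 2, and without P-factor they were -0.88, -0.71 and -0.91 in series 1 and -1.10, -1.22 and -1.16 in series 2. The conditions met at -0.71 and did not cross. The difference of the changes was 0.54 ± 0.20 (adjusted p = 0.0451). It was not called with the values as deposited (0.42, adjusted p = 0.127), without the block (0.54, adjusted p = 0.216) or without 3 of the 4 series (0.41 to 0.63, adjusted p = 0.165 to 0.345).

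The gene mrpl19 read -0.89, -0.80 and -1.24 late with P-factor in series 1 and -1.13, -0.93 and -1.04 in series 2, against -1.37, -1.38 and -1.38 in series 1 and -1.70, -1.40 and -1.18 in series 2 without it. The late values overlapped through a single array of each condition. Its difference of changes, 0.71 ± 0.20 (adjusted p = 0.0127), came with a fall without P-factor (-0.49 ± 0.14, adjusted p = 0.00857) and an uncalled change with it (0.22 ± 0.14, adjusted p = 0.201). It was not called without series 2 of the P-factor condition (0.57, adjusted p = 0.129) or series 1 of the other (0.45, adjusted p = 0.24). The gene mrps9 (SPAC29A4.03C), of the S9 family, differed by 0.41 ± 0.14 (adjusted p = 0.0331), its late values overlapped, and the call was lost without any 1 of the 4 series (0.31 to 0.51, adjusted p = 0.0648 to 0.344), without the block (0.41, adjusted p = 0.142) and with the values as deposited (0.28, adjusted p = 0.143).

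**Figure D5:**
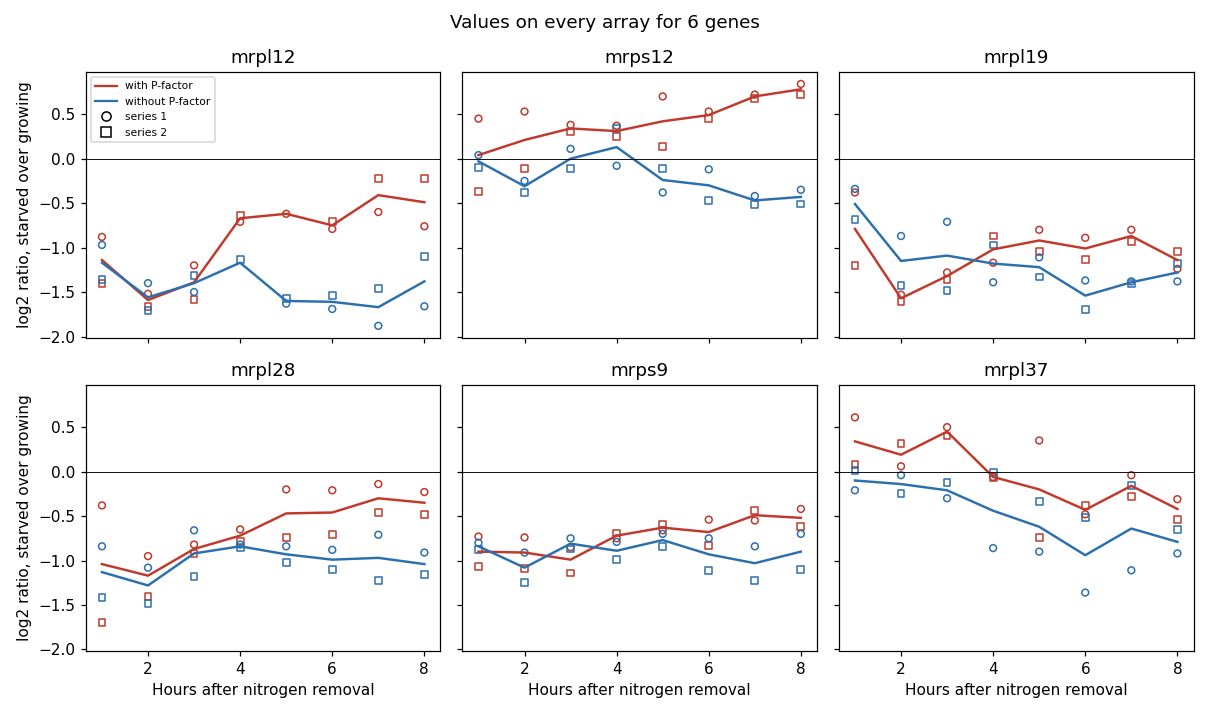
Log2 ratio of starved over growing cells on every array from 1 to 8 h for mrpl12, mrps12, mrpl19, mrpl28, mrps9 and mrpl37, with P-factor in red and without it in blue; circles and squares are the arrays of series 1 and 2, and lines join the hourly estimates of the model. For mrpl12 and mrps12 the colours separate fully at 6 to 8 h, and mrpl37 declines in both.

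Across the late hours, 6 of the 45 members measured on all 12 late arrays had every value with P-factor above every value without it (mrpl12, mrpl28, mrpl35, mrpl6, mrps12 and mrps8), where 10.4% of all genes did. None had every value below, where 6.64% of all genes did. Among the related lists, 8 of the 40 genes in the translation factor list had a larger late minus early change with P-factor and 0 a smaller one. Over all genes these shares were 15.6% and 10.2%. The 8 genes included tuf1, the mitochondrial elongation factor Tu, at 1.03 ± 0.13, and the RNA helicase gene mss116 at 1.39 ± 0.31. Of the 121 cytosolic ribosomal protein genes 109 had a smaller change with P-factor (median -0.79), where the members had a median of 0.06.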

How the data were processed

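RNA of 32 arrays was analysed. The authors deposited 1 log2 ratio per probe and array; the direction (starved, Cy5, over growing, Cy3) follows per the labels, the base of the logarithm was taken as 2 by convention, and the authors' background and normalization steps are not stated in the sources used here. Of 5188 probes, 4868 matched 1 gene, 22 several and 298 none in the array's gene table; 4 genes had more than 1 probe, averaged. Symbols and neighbours came from RefSeq. Each array was centred on its median (-0.154 to 0.091 before). The 4811 genes measured on at least 24 arrays were fitted with limma 3.58.1 in R 4.3.3: 16 group means, the array series as a random block (consensus correlation 0.354; 16 residual and 6.32 prior degrees of freedom), two-sided tests, Benjamini-Hochberg adjustment over all genes tested and a threshold of 0.05. Arrays give no depth; their number limits the precision. On simulated data with 4811 genes, a change of 1 was recovered for 82% of genes for the averaged P-factor difference. The share was 92% for late minus early with P-factor and 93% for the average without P-factor. Over both sizes in these data, 1 and 2, 23 of 203, 10 of 202 and 21 of 214 calls were false. The first and last of these shares exceed 0.05. The simulation gave every gene normal noise with the same correlation within series, as the model assumes. It cannot show how calls behave where the effect of the series differs by gene or condition.

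The members and the comparison lists were chosen with earlier results of these data known. Named genes are up to 10 called members with the largest change in each direction of a comparison, up to 5 uncalled members and up to 3 called genes in each direction from each other list; mrp51, mrpl4, mrpl37, mrps17 and the members with a called condition difference have values by array. Genes named beyond this rule were chosen after their values were seen. Alternatives were no centring, scaled arrays, no block, the series as a fixed block, genes on all arrays and a ratio filter. Each series was also left out in turn. The ratio filter dropped genes within 0.25 of the median ratio of probes not matched to 1 gene, on 24 or more arrays. It is not a filter on signal and removed 0 members, so a call that held under it gains little support.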

Additional observations from a re-analysis of the deposited data

Results flagged for a closer look

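Of all results, 8 concern a difference between the conditions that passed its own test in limma. The late minus early change was larger with P-factor than without it by 1.00 for mrpl12 (adjusted p = 0.00102), by 0.75 for mrps12 (adjusted p = 0.00353), by 0.71 for mrpl19 (adjusted p = 0.0127), by 0.54 for mrpl28 (adjusted p = 0.0451) and by 0.41 for mrps9 (adjusted p = 0.0331). At single hours, P-factor minus none was 1.25 at 7 h for mrpl12 (adjusted p = 0.0132), and 1.17 at 7 h (adjusted p = 0.00823) and 1.21 at 8 h (adjusted p = 0.00489) for mrps12. The direction was the same under every alternative run for the 5 changes, and none of the 5 was called under all of them.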

How the results depend on the processing

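No paired analysis across conditions was possible because the labels number no replicates; the array series stood as the block instead. No called member took the opposite sign in any alternative that gave it an estimate, but the median late minus early change with P-factor was -0.18 as deposited, -0.07 without series 2 of that condition and -0.01 with genes on all arrays (0.01 as reported), and the median difference of the changes was -0.07 as deposited (0.06). Of the averages, 12 of 28 with P-factor and 19 of 34 without it were called in all 10 alternatives; a further 3 and 3 (mrp17, mrpl12 and mrps28, and mrpl12, mrpl32 and mrps28) were called in the 8 or 9 that gave them an estimate. Called in all 10 were 3 of 17 late minus early changes with P-factor (mrpl28, mrpl37 and mrpl4), 0 of 7 without it and 0 of 5 differences between conditions. With the values as deposited, 3 members were higher and 16 lower late with P-factor, 11 were lower late without it, the change differed upward for 3 and downward for 2, and 3 varied over the hours without P-factor. With scaled arrays, 11 were lower late with P-factor and 1 averaged higher than without it. Without the block, 11 averaged higher with P-factor, 3 were lower late with it and 4 without it, P-factor minus none gave 11 higher and 2 lower, the change differed upward for 3, and 2 varied over the hours with P-factor. With the fixed replicate block, 11 averaged higher with P-factor, P-factor minus none gave 14 higher and 5 lower, the change differed downward for 1, and of all combinations of member and hour 9.51% were higher with P-factor (4.89% with the random block), 7.88% without it (4.35%) and 2.99% for P-factor minus none (0.815%). The averages under the fits without the block and with the fixed block are judged without the spread between series, so their counts are too liberal. With genes on all arrays, which drops 6 members, 3 averaged higher with P-factor. Leaving out 1 series at a time leaves 1 array per hour in that condition, assumed to vary like the others, and a member or hour without an array counts as not called. Averages with P-factor then gave 0 to 7 higher and 16 to 28 lower, without it 4 to 7 higher and 23 to 26 lower; late minus early gave 3 to 10 higher and 1 to 5 lower with P-factor, and 0 to 7 lower without it; P-factor minus none gave 0 to 6 higher and 0 to 2 lower for the average, and 0 to 4 higher and 0 to 2 lower for the change; 1 to 5 varied over the hours with P-factor; of member and hour combinations, 1.63% to 4.89% were higher and 15.2% to 42.1% lower with P-factor, 1.90% to 3.80% higher and 30.2% to 40.8% lower without it, and 0 to 1.09% higher for P-factor minus none. The fits without a series of one condition have fewer arrays. Those without a series of the condition lacking P-factor had a consensus correlation of 0.143, against 0.354 in the main fit. Their counts on averages may be too liberal. Other causes were not tested.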
